A study of Mus musculus with 6 samples.

Results

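Glutathione transferases join the tripeptide glutathione to electrophiles such as lipid aldehydes, epoxides and quinones, which makes these compounds easier to export and less able to attack proteins and DNA. The soluble enzymes are grouped into classes named by Greek letters, and a separate group of membrane proteins, the MAPEG proteins, includes microsomal transferases and synthases of eicosanoids. Several of the genes are known to be switched on through antioxidant response elements, which bind the factor Nrf2, and through xenobiotic response elements, which bind the aryl hydrocarbon receptor. The 10 genes described here are Gsta2, Gsta3 and Gsta4 of the alpha class, Gstm1, Gstm2 and Gstm5 of the mu class, Gstp1 of the pi class, Gstt1 of the theta class, Gsto1 of the omega class and the microsomal Mgst1. They were taken by symbol from a table of 38896 genes, in which they hold 22 of 120299 transcripts, and all 10 were listed. The choice was made with earlier results of the same comparison known, so the differences of these 10 genes between the groups are given as a description and without p-values.

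RNA was sequenced from primary colonic fibroblasts of the distal colon of mice aged 6 weeks, grown for 2 passages and then kept for 24 h in conditioned medium. The libraries labelled DSS (n = 3) are read here as cultures kept in the inflammatory medium, and the Ctrl libraries (n = 3) as cultures kept in control medium. Both groups came from the same 3 mice, numbered 1716, 1717 and 1718, each of which gave 1 DSS and 1 Ctrl library, and the labels name no strain, sex or engineered allele. DSS commonly stands for dextran sulfate sodium, which induces colitis in mice, but the labels do not say how the medium was prepared.

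The libraries held 17293680 to 17931239 estimated counts in DSS and 17734405 to 19482938 in Ctrl. Fibroblast markers were abundant, with the sum of 9 at 20100 to 24700 CPM (counts scaled to a common library size) in DSS and 37300 to 44100 CPM in Ctrl, and 6 of the 9 were called lower and 2 higher. Of 10 epithelial markers 6, Epcam and Krt8 among them, stood under 1 CPM in every library, with Cdx2 at 0, but the sum of the 10 was 9.08 to 10.7 CPM in DSS and 15.7 to 20.8 CPM in Ctrl (4 tested, 2 called lower), with Muc2 at a mean of 2.12 CPM in DSS and 9.17 CPM in Ctrl. The sum of 4 smooth muscle markers was 1000 to 1140 CPM in DSS and 1330 to 1420 CPM in Ctrl (3 called lower, 1 higher), and that of 11 leukocyte markers, mostly of macrophages, was 1280 to 2110 CPM in DSS and 2060 to 2950 CPM in Ctrl (6 called lower, 1 higher). The 4 markers of enteric glia summed to 59.4 to 261 CPM in DSS and 95.8 to 323 CPM in Ctrl (2 called lower), the 6 of endothelium to 12.5 to 16.7 CPM in DSS and 15.4 to 21.8 CPM in Ctrl (2 called lower), and the 4 of mesothelium to 2.38 to 4.11 CPM in DSS and 1.82 to 4.22 CPM in Ctrl (0 called). The part of these cell types in the results was not tested, and in such bulk RNA fewer cells of a type and less RNA per cell cannot be told apart.

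Short stretches before the start sites show what the promoters of 4 of the genes hold, from RefSeq on build GRCm38.p6. Of the 10 genes, 9 were matched to 11 promoters of 250 bases before to 50 after the start, and Gsta4 was not. The windows below run 5′ to 3′ on the strand of the gene, with the motif in capitals. The first 3 show TGACNNNGC, the core of the antioxidant response element, and the last shows TGANTCA, the AP-1 motif.
Gsta3, chr1:21240444-21240492, plus strand: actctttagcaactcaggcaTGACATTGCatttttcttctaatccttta
Mgst1, chr6:138140451-138140499, plus strand, motif on the opposite strand: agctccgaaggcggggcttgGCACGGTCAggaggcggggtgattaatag
Gstm5, chr3:107895792-107895840, plus strand: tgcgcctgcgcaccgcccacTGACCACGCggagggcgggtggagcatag
Gstp1, chr19:4037960-4038006, minus strand: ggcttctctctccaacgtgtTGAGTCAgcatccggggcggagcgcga

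On either strand, the antioxidant core was found in 3 of the 11 promoters (of Gsta3, Gstm5 and Mgst1), against 12.4% of 32851 promoters of this length. The AP-1 motif was found in 2 of the 11 (of Gstm5 and Gstp1), against 7.81% of all. GCGTG, the core of the xenobiotic response element, was found in 5 of the 11 (of Gsta2, Gstm1, Gstm5 and Gstp1), against 32.4% of all. The promoters of Gstm1 overlap and hold the same site, which is counted in each of them. In Gstm5 the GCGTG core overlaps both of the other motifs. A match of letters in these windows is not a bound site.

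Of the 9 genes that passed the filter on low counts, 8 stood higher in DSS than in Ctrl with no overlap between the groups. The alpha class stood farthest apart. For such a gap with DSS higher the background was 17.8% of the 19869 genes tested. Gsta2, which did not pass the filter, held 2.67, 2.05 and 3.51 estimated counts in DSS and 0 in each Ctrl library. The quasi-likelihood test of edgeR, fitted with the mouse as a block, called 8 of the 9 genes that passed the filter on low counts higher and 0 lower, at an adjusted p under 0.05. The background of that call was 12.3% of genes higher and 12.7% lower. Because the genes were chosen with this contrast in view, nothing is read from these counts. The median log2 fold change of the 9 was 1.19, against 0.01 over all genes tested.

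The alpha class came first in size. Gsta4 (NCBI Gene 14860, chromosome 9, 78191966 to 78209349, GRCm38), which clears the lipid peroxidation product 4-hydroxynonenal, stood at 30.9, 63.0 and 75.7 CPM in the DSS cultures of mice 1716, 1717 and 1718, and at 1.11, 1.32 and 1.20 CPM in the Ctrl cultures of the same mice. Every DSS library thus lay far above every Ctrl library, and the Ctrl libraries lay close together. The log2 fold change was 5.49 ± 0.16 (SE), the 11th highest of the 19869 genes, and the level without the log was 46.6-fold higher in DSS. The fitted value rests on 21 to 24 counts per Ctrl library.

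Gsta3 (NCBI Gene 14859, chromosome 1, 21240565 to 21265575), known in mouse liver for clearing the epoxide of aflatoxin, stood at 20.7, 38.3 and 54.6 CPM in DSS and at 1.37, 2.53 and 2.98 CPM in Ctrl. The groups did not overlap, and mouse 1716 was lowest and mouse 1718 highest in both. Its log2 fold change was 4.03 ± 0.10, the 30th highest. Gsta2 (NCBI Gene 14858, chromosome 9, 78331018 to 78347192), an alpha transferase that is inducible in liver, held only 2.67, 2.05 and 3.51 estimated counts in DSS and 0 in each Ctrl library. It did not pass the filter and has no fitted value, and its counts are uncertain because most of its sequence is shared with other genes.

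**Figure D1:**
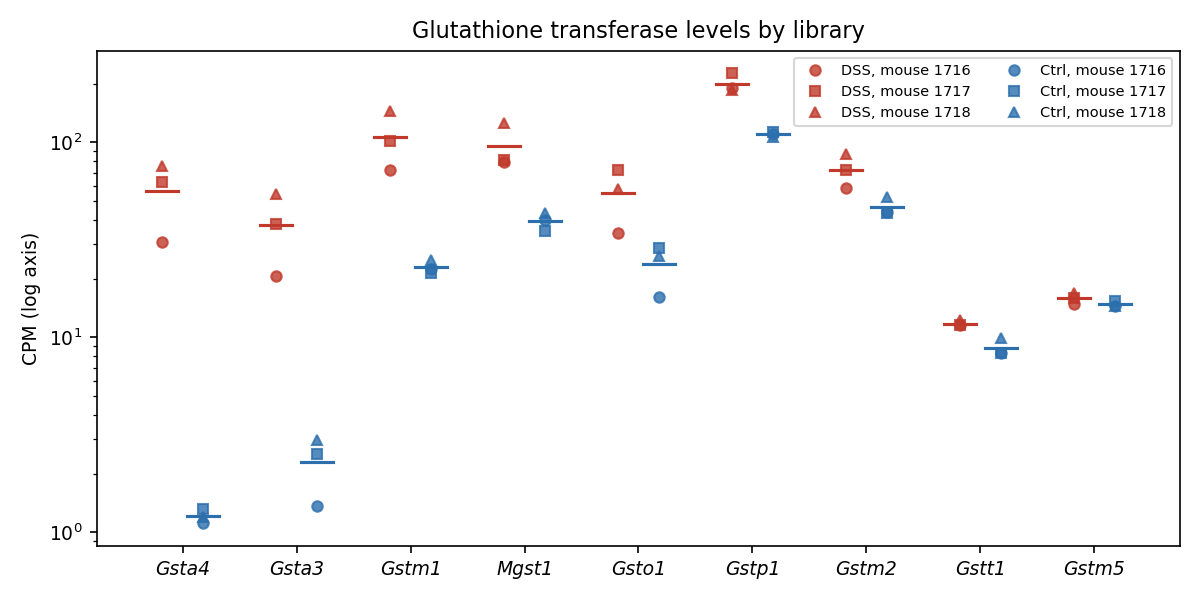
Level of the 9 tested genes in each library, in CPM on a log axis, with DSS left of Ctrl for each gene, marker shapes for the mice and lines at the group means. Gsta4 sits between 30.9 and 75.7 CPM in DSS and between 1.11 and 1.32 CPM in Ctrl, whereas the groups of Gstm5 overlap.

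The mu class was split. Gstm1 (NCBI Gene 14862, chromosome 3, 108012250 to 108017973), a major soluble transferase of mouse tissues, stood at 72.2, 102 and 145 CPM in DSS and at 22.5, 21.3 and 25.0 CPM in Ctrl. The groups did not overlap, and the log2 fold change was 2.17 ± 0.15. Gstm2 (NCBI Gene 14863, chromosome 3, 107981702 to 107986420) stood at 58.3, 72.2 and 87.0 CPM in DSS and at 44.0, 43.2 and 52.5 CPM in Ctrl. Its gap was narrower, with a log2 fold change of 0.63 ± 0.08. Gstm5 (NCBI Gene 14866, chromosome 3, 107895854 to 107898685) stood at 14.9, 15.9 and 17.0 CPM in DSS and at 14.5, 15.4 and 14.6 CPM in Ctrl. These groups overlapped, and its log2 fold change was 0.10 ± 0.08, the only one of the 9 that did not pass. Gstm5 was also the gene whose promoter window held all 3 motifs.

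Gstp1 (NCBI Gene 14870, chromosome 19, 4035411 to 4037912), the pi class enzyme that also binds and restrains the stress kinase JNK, stood at 190 CPM, 226 CPM and 185 CPM in DSS and at 111, 113 and 106 CPM in Ctrl. The groups did not overlap, and its log2 fold change was 0.86 ± 0.07. Gsto1 (NCBI Gene 14873, chromosome 19, 47854973 to 47864790), an omega enzyme that reduces rather than conjugates many of its substrates, stood at 34.4, 72.3 and 57.5 CPM in DSS and at 16.1, 28.8 and 26.1 CPM in Ctrl. Both groups were lowest in mouse 1716 and highest in mouse 1717, and the Ctrl levels all lay below the DSS levels. The log2 fold change was 1.19 ± 0.07.

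Gstt1 (NCBI Gene 14871, chromosome 10, 75783813 to 75798584), whose class acts on small halogenated compounds, stood at 11.5, 11.5 and 12.2 CPM in DSS and at 8.31, 8.27 and 9.92 CPM in Ctrl. The groups did not overlap, but the gap was the smallest of the 8 genes called, with a log2 fold change of 0.42 ± 0.09. It was not called with DESeq2, without mouse 1717 or without mouse 1718. Mgst1 (NCBI Gene 56615, chromosome 6, 138140527 to 138156755), a transferase and peroxidase of the endoplasmic reticulum and the outer mitochondrial membrane, stood at 79.6, 81.3 and 126 CPM in DSS and at 39.9, 35.2 and 43.2 CPM in Ctrl. The groups did not overlap, and the log2 fold change was 1.25 ± 0.10.

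The 3 mice gave the same direction for all 9 genes but not the same size. The log2 ratio of DSS to Ctrl was smallest in mouse 1716 for 7 of the 9 genes and largest there for 0. For all genes tested mouse 1716 was smallest in 34.1%, and for all genes called higher in 43.5%. Gsta4 had log2 ratios of 4.79, 5.58 and 5.97 in mice 1716, 1717 and 1718, and Gstm1 had 1.68, 2.26 and 2.54. Gsto1, Gstp1, Gstm2 and Gstt1 were largest in mouse 1717. The 2 exceptions at the low end were Gstt1, smallest in mouse 1718 at 0.30, and Gsta3, at 3.92 in both mouse 1716 and mouse 1717. With 1 library per mouse and group, the differences between mice were not tested.

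**Figure D2:**
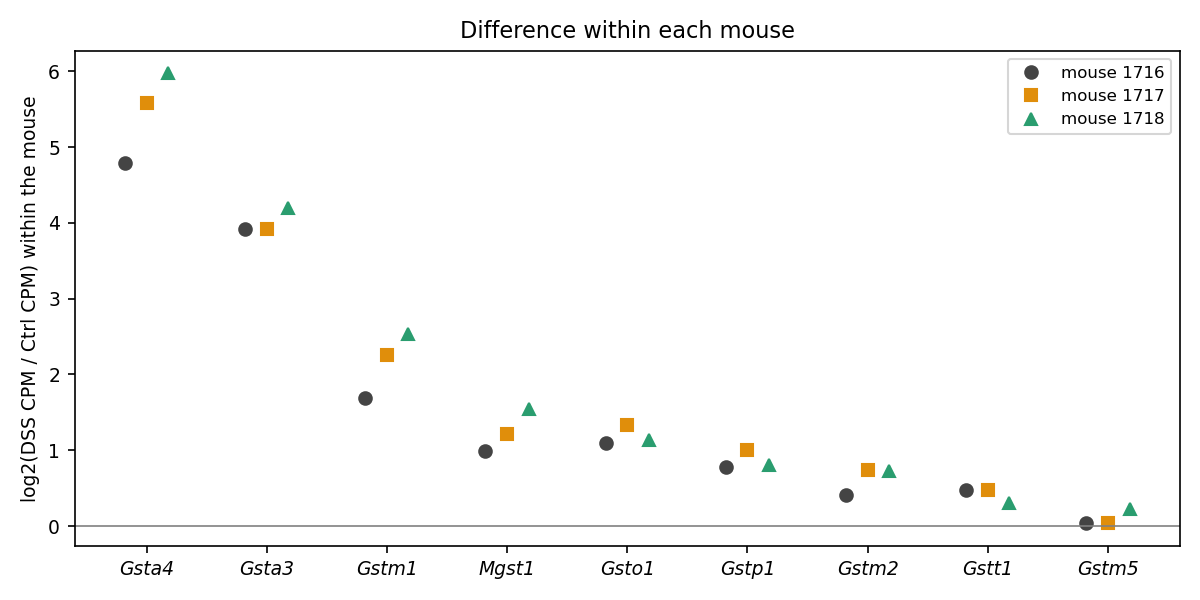
Log2 ratio of DSS to Ctrl CPM within each mouse, for the 9 tested genes ordered by their fitted fold change. All points lie above 0, and for Gsta4 and Gstm1 the order runs from mouse 1716 (4.79 and 1.68) to mouse 1718 (5.97 and 2.54).

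Copies of these genes can share reads, so the sums over the alpha and the mu genes were taken as well. The 5 listed genes named Gsta and a number summed to 51.8, 103 and 133 CPM in DSS and to 2.48, 3.85 and 4.18 CPM in Ctrl, a log2 fold change of 4.74 ± 0.11. Without Gsta4 the sum was 39.5 ± 18.2 CPM in DSS and 2.29 ± 0.832 CPM in Ctrl (SD, n = 3), a log2 fold change of 4.09 ± 0.10. The 7 genes named Gstm and a number summed to 157, 203 and 261 CPM in DSS and to 89.9, 88.6 and 101 CPM in Ctrl, a log2 fold change of 1.12 ± 0.10. Neither sum overlapped between the groups, and a sum does not depend on how reads were divided among the genes in it. Gm3776 and pseudogenes that share sequence with these genes are outside the sums, so the division of reads with them still enters.

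How far the copies can be told apart differs from gene to gene. Of the stretches of 31 bases in the GENCODE M21 transcript of each gene, 0 of Gsta4, Gsto1 and Mgst1 occur in transcripts of any other gene, and 1.05% of Gsta3 and 0.695% of Gstt1 do. The deposited totals of Gsta4, Gsto1, Mgst1 and Gstt1 were whole numbers in all 6 libraries (tolerance 0.01), as they are when no read is divided with another gene. By contrast 75.6% of the stretches of Gsta2 are shared, mostly with Gm10639, Gsta1 and Gm3776, and 67.5% of those of Gstp1 are shared with Gstp2. For Gstm1 the share is 34.3% and for Gstm2 19.5%, largely with pseudogenes and other mu genes. The 16.2% of Gstm5 lie on the opposite strand of 4933431E20Rik, a noncoding gene that overlaps its start. The sources used here do not say whether counting used strand, and without strand the reads of these neighbours cannot be told apart.

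Levels of different genes were compared per length, as CPM per kb of transcript. In DSS Gstp1 was highest, at 244 ± 27.4 CPM per kb, and in Ctrl it was highest as well, at 134 ± 4.32 CPM per kb (SD, n = 3). In DSS the next were Gstm1 at 82.6 ± 28.6, Mgst1 at 82.1 ± 22.7, Gstm2 at 68.1 ± 13.5, Gsta4 at 57.8 ± 23.6, Gsto1 at 46.3 ± 16.2, Gsta3 at 26.0 ± 11.6 and Gstm5 at 16.8 ± 1.10 CPM per kb. Each of these overlapped its neighbour in the order, so only Gstp1 above them, and Gstt1 at 11.3 ± 0.396 and Gsta2 at 0.180 ± 0.0482 below them, stood apart from the gene next to them. In Ctrl the order after Gstp1 was Gstm2, Mgst1, Gsto1, Gstm1, Gstm5, Gstt1, Gsta3, Gsta4 and Gsta2, in which only Gsto1 with Gstm1 and Gsta3 with Gsta4 overlapped. Gsta4 held the 5th place in DSS and the 9th in Ctrl, at 57.8 ± 23.6 CPM per kb in DSS and 1.24 ± 0.103 CPM per kb in Ctrl.

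Over the 32 family genes with a transcript length, the summed level was 834 ± 140 CPM per kb in DSS and 378 ± 14.3 CPM per kb in Ctrl. The alpha class made up 7.03, 10.4 and 13.0% of it in DSS and 0.574, 0.813 and 0.839% in Ctrl. The pi class made up 30.4 ± 5.39% in DSS and 36.9 ± 2.19% in Ctrl, the mu class 20.8 ± 2.49% in DSS and 21.8 ± 1.09% in Ctrl, and the MAPEG proteins 27.9 ± 0.597% in DSS and 25.4 ± 0.907% in Ctrl. The alpha and MAPEG shares were higher in DSS without overlap. The MAPEG sum was 233 ± 42.5 CPM per kb in DSS and 96.1 ± 5.91 CPM per kb in Ctrl. Of this Mgst1 held 82.1 ± 22.7 CPM per kb in DSS and 33.8 ± 3.46 CPM per kb in Ctrl. The MAPEG sum also includes the prostaglandin synthase Ptges, at 449 ± 89.8 CPM in DSS and 139 ± 1.54 CPM in Ctrl. The shares of theta (2.97 ± 0.133% in DSS and 4.48 ± 0.279% in Ctrl), zeta, kappa, sigma and the domain proteins were lower in DSS without overlap, and the mu and omega shares overlapped. In level, theta was higher in DSS without overlap, at 24.6 ± 3.41 CPM per kb in DSS and 16.9 ± 1.67 CPM per kb in Ctrl. The mean levels of zeta, kappa, sigma and the domain proteins were lower in DSS, without overlap only for the domain proteins. Because the shares add up to the same whole, they are not independent of each other. The pi share of DSS mouse 1716, 35.4%, lay within the Ctrl range.

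**Figure D3:**
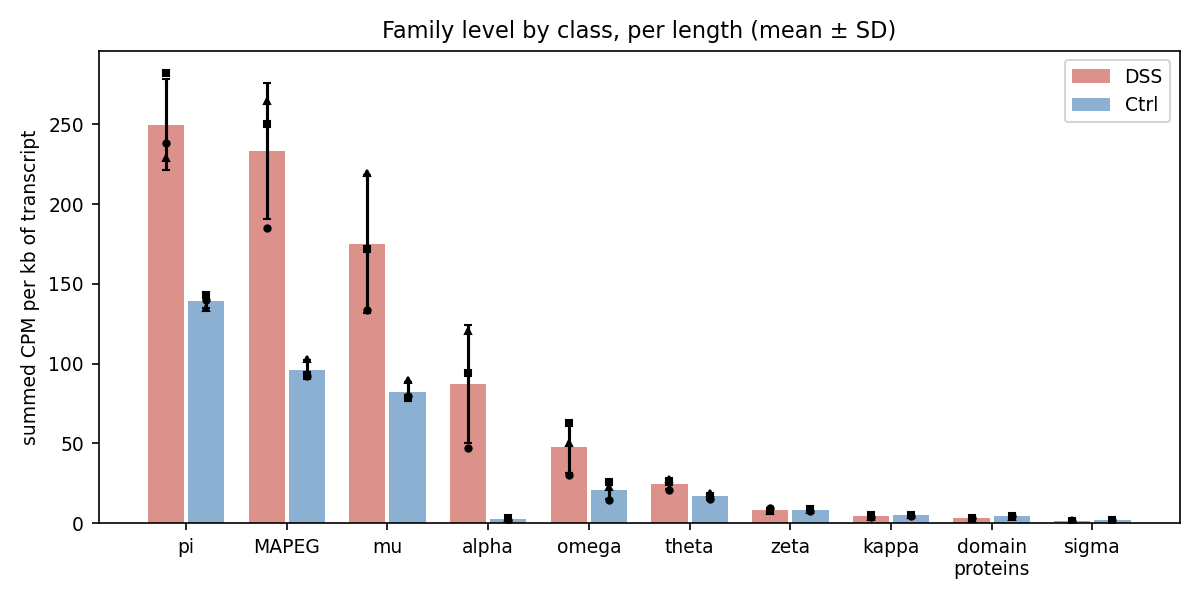
Summed level of the family by class, in CPM per kb of transcript, with DSS left of Ctrl, bars at the mean, error bars of 1 SD and points for the 3 mice. The alpha class stands at 87.2 ± 36.9 in DSS and 2.81 ± 0.643 in Ctrl, whereas the single zeta gene stands at 8.05 ± 1.05 in DSS and 8.29 ± 0.381 in Ctrl.

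The share of each transcript within its gene comes from the same counts as the total that guided the choice of genes, so the shares are a description too. Gsta3 has 4 listed transcripts. NM_010356.4 took 63.0, 73.4 and 68.7% of the Gsta3 counts in DSS and 23.1, 39.3 and 27.2% in Ctrl, whereas XM_030248789.1 took 25.07, 19.98 and 20.71% in DSS and 76.9, 60.7 and 60.6% in Ctrl. Neither of these shares overlapped between the groups. NM_001077353.2 took 4.89 to 8.78% in DSS and 0 to 12.2% in Ctrl, which overlapped, and NM_001288617.1 took 1.71 to 6.42% in DSS and 0 in Ctrl. In CPM both main transcripts were higher in DSS, NM_010356.4 at 26.2 ± 12.3 in DSS and 0.708 ± 0.352 in Ctrl (37.0-fold) and XM_030248789.1 at 8.05 ± 3.08 in DSS and 1.46 ± 0.382 in Ctrl (5.50-fold). The Ctrl shares rest on 27 to 52 counts per library, and they are estimates divided among overlapping transcripts.

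Elsewhere the shares moved less. The minor Gstm1 transcript NM_001374678.1 took 13.4 to 16.4% in DSS and 8.71 to 11.5% in Ctrl, and the main Mgst1 transcript NM_019946.5 took 94.5 to 95.7% in DSS and 93.8 to 94.4% in Ctrl. The shares of the Gstt1 transcripts overlapped. Of 8 transcripts of these genes with a share of 5 to 95%, 5 had shares that did not overlap, against 13.0% of 36375 such transcripts, but shares within a gene are not independent of each other and nothing is read from this count. With 3 libraries against 3 no test of a single share was made.

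**Figure D4:**
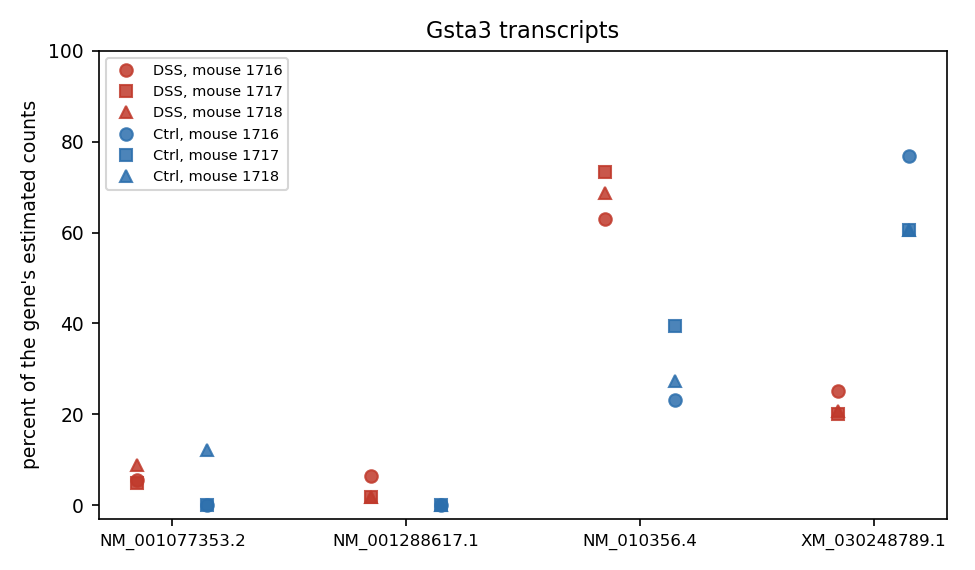
Share of the estimated counts of Gsta3 that each of its 4 listed transcripts took in each library, in percent, with DSS left of Ctrl. NM_010356.4 lies between 63.0 and 73.4% in DSS and between 23.1 and 39.3% in Ctrl, and XM_030248789.1 between 19.98 and 25.07% in DSS and between 60.6 and 76.9% in Ctrl.

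The family holds 23 other listed genes, which were not picked with the 10, and 16 of them passed the filter. Of these 7 rose and 1 fell, against 12.3% and 12.7% of all genes tested, and 8 did not pass. Their median log2 fold change was 0.44. Gm3776, 1 of the 7, held 0 counts in Ctrl and passed the filter through the DSS group alone. Gstt2, of the theta class, rose to 8.51 ± 1.79 CPM in DSS, against 4.78 ± 0.880 CPM in Ctrl (n = 3, edgeR adjusted p = 0.00194). Gstt3, of the same class, rose by 0.50 ± 0.14 on the log2 scale (edgeR adjusted p = 0.0342). The mu gene Gstm4 rose by 0.37 ± 0.10 (edgeR adjusted p = 0.0363). Gstm7, also of the mu class, stood 1.22 ± 0.34 higher, at only 1.04 ± 0.442 CPM in DSS and 0.433 ± 0.0519 CPM in Ctrl. With 8, 9 and 7 Ctrl counts, Gstm7 too passed the filter through the DSS group alone, so its p-value is not given. Without the block, Gstm4 and Gstt3 lost the call (edgeR adjusted p = 0.0604 and 0.101). They also lost it without mouse 1717 and without mouse 1718 (edgeR adjusted p = 0.0912 to 0.210). Gstm7 lost the call in each of these fits as well.

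Among the MAPEG relatives Ptges, the terminal synthase of prostaglandin E2, stood at 449 ± 89.8 CPM in DSS and 139 ± 1.54 CPM in Ctrl, and rose by 1.67 ± 0.11 (edgeR adjusted p = 0.000117). Ltc4s, which makes leukotriene C4, rose by 1.27 ± 0.24 (edgeR adjusted p = 0.00823; 0.0508 with DESeq2). Mgst2 and Mgst3, which share the name of Mgst1, did not pass, at log2 fold changes of 0.52 ± 0.20 and -0.57 ± 0.21 (edgeR adjusted p = 0.0963 and 0.0874). Mgst2 passed without mouse 1716, at an adjusted p of 0.0120. Alox5ap, the helper protein of 5-lipoxygenase, was at -0.04 ± 0.15. The gene that fell was Gstcd, a protein with a transferase-like domain, which stood at 10.5 ± 1.18 CPM in DSS and 14.6 ± 0.434 CPM in Ctrl (edgeR adjusted p = 0.00945; 0.0602 without mouse 1718).

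Other soluble members did not pass. Gstz1, a zeta enzyme of tyrosine breakdown, had a log2 fold change of -0.04 ± 0.11, Gstk1, an enzyme of mitochondria and peroxisomes, -0.17 ± 0.14, and Hpgds, which makes prostaglandin D2, -0.17 ± 0.14. Gsto2, the neighbour of Gsto1, was at 0.58 ± 0.21 (edgeR adjusted p = 0.0876). Gstp2, the copy that shares most of its sequence with Gstp1, was at 0.09 ± 0.24, with log2 ratios of 0.45, 0.39 and -0.73 in mice 1716, 1717 and 1718. It stood at 5.20, 4.89 and 2.45 CPM in DSS and between 3.73 and 4.06 CPM in Ctrl, so the groups overlapped.

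**Figure D5:**
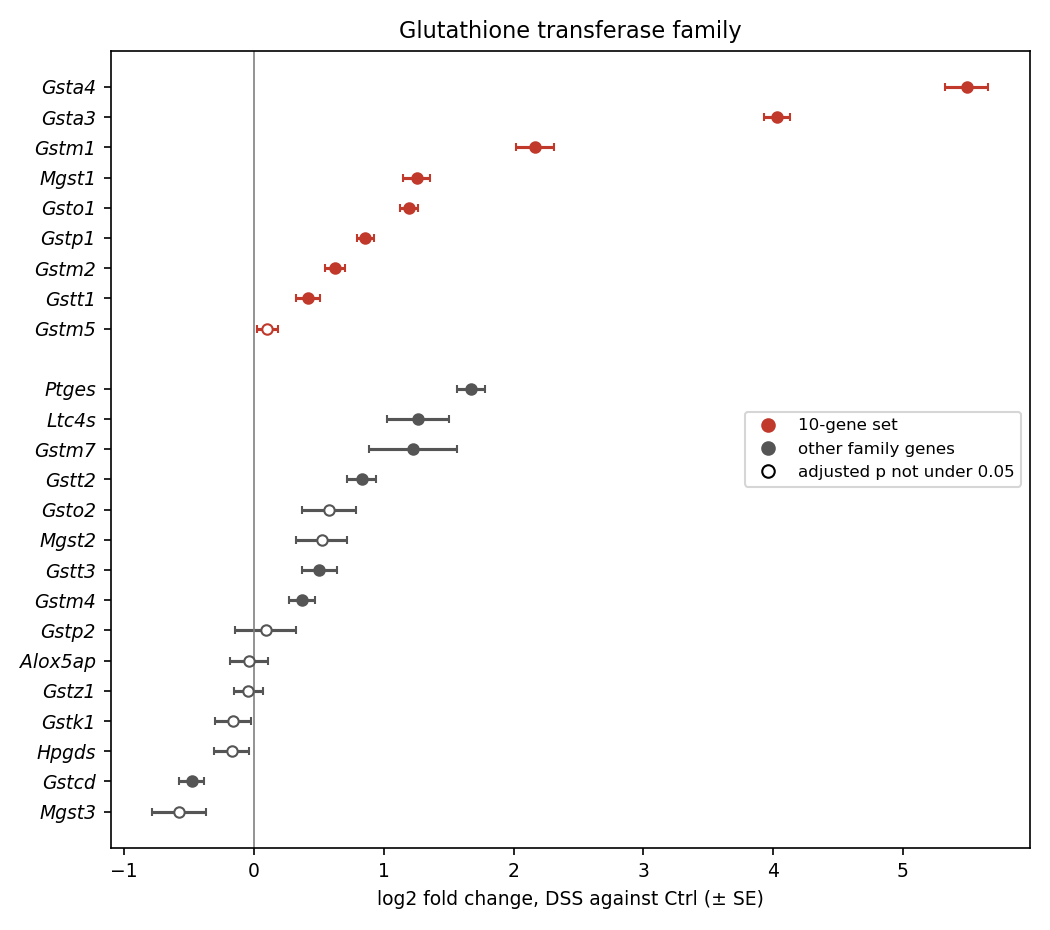
Log2 fold change of DSS against Ctrl with its SE for the 9 tested genes of the 10 (top) and 15 other tested family genes (below), with open symbols where the adjusted p was not under 0.05. Gsta4 and Gsta3 lie at 5.49 and 4.03, Gstm5 at 0.10, and Gstcd at -0.48.

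Most mu and alpha genes lie in clusters. On chromosome 3 the mu genes lie in the order Gstm5, Gstm7, Gstm6, Gstm3, Gstm2, Gstm1 and Gstm4, from position 107895854 to 108045179. Their log2 fold changes along this line were 0.10, 1.22, not tested, not tested, 0.63, 2.17 and 0.37. On chromosome 9 the alpha genes lie in the order Gsta4, Gsta1, Gm3776, Gsta5 and Gsta2, from 78191966 to 78347192, with Gsta3 apart on chromosome 1. The near-identical Gsta1 and Gm3776 held 77.5 and 68.3 estimated counts over the DSS group and 0 over the Ctrl group, and Gsta5 held 0 in all 6 libraries. By mouse, Gsta1 held 1.32, 33.2 and 43.0 estimated counts and Gm3776 19.0, 14.8 and 34.5 in DSS, so Gsta1 was near 0 in mouse 1716, and how reads were divided between these copies is uncertain. Gm3776 was the remaining family gene called higher, and Gsta1 did not pass the filter. With 0 Ctrl counts, Gm3776 passed that filter through the DSS group alone, so its p-value is not given.

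Genes that supply glutathione to these enzymes, and export its conjugates, were read beside them. Of 23 tested, 12 rose and 2 fell (median 0.64), against 12.3% and 12.7% of all genes tested. The lists of this paragraph and the next were chosen with earlier results of these data known. Nothing is read from their counts, and their p-values carry the same limit. Gclm, a subunit of the enzyme that limits glutathione synthesis, stood at 257 ± 56.3 CPM in DSS and 50.4 ± 6.35 CPM in Ctrl (edgeR adjusted p = 1.1e-05). Gss, the second enzyme of that synthesis, rose by 1.75 ± 0.07, Gsr, which restores reduced glutathione, by 1.22 ± 0.06, and the conjugate exporter Abcc1 by 1.68 ± 0.08. Picked out here once their values were known, the 2 falling genes were Cth, which makes cysteine, with a log2 fold change of -1.78, and Chac1, which breaks glutathione down, with -1.90. Of 14 other tested enzymes of reactive aldehydes and quinones, 8 rose and 2 fell (median 0.34), beside the same shares of all genes. Nqo1, a quinone reductase, stood at 440 ± 110 CPM in DSS and 109 ± 14.8 CPM in Ctrl. Cbr3 rose by 1.73 ± 0.12, whereas Aldh1a3 fell by 1.56. Adh7, 1 of the 8, stood 3.21 ± 0.25 higher, with 74, 66 and 65 counts in DSS and 6, 8 and 9 in Ctrl. It passed the filter through the DSS group alone.

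Of 14 tested regulators that act at antioxidant and xenobiotic response elements, or are read out from them, 8 rose and 0 fell (median 0.27). The other 6 did not pass. Over all genes tested, 12.3% were called higher and 12.7% lower. Ahr, the aryl hydrocarbon receptor, stood at 109 ± 22.5 CPM in DSS and 47.3 ± 4.33 CPM in Ctrl (edgeR adjusted p = 0.000401). Its target Cyp1a1 rose by 4.67 ± 0.49, to only 1.55 ± 0.265 CPM in DSS, against 0.0556 ± 0.0548 CPM in Ctrl. Cyp1a1 held 0, 2 and 1 counts in the Ctrl libraries and passed the filter through the DSS group alone. Among the genes of this list that did not pass, Cyp1b1 and Tiparp stood at higher levels than Cyp1a1. Their log2 fold changes were 0.22 ± 0.07 and 0.21 ± 0.11 (edgeR adjusted p = 0.0635 and 0.216). Mafg, a partner of Nrf2, rose by 0.55 ± 0.06 and Ahrr, the repressor of the receptor, by 0.98 ± 0.11, although its DSS and Ctrl levels overlapped. Whether these factors acted on the transferases was not tested.

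By the size of the change within each mouse, the named genes nearest to Gstm1 among 11134 genes of at least 5 CPM were Slc39a4, Mmp3, Slco4a1, Kcnq5 and Slc7a11. Slc7a11, the cystine importer of the glutathione supply list, had log2 ratios of 1.56, 1.996 and 2.58 in mice 1716, 1717 and 1718, against 1.68, 2.26 and 2.54 for Gstm1, a Euclidean distance of 0.294. The genes nearest to Gsta4 were Heph, Tgtp2, Mt3, Iigp1 and Gbp5, but they lay farther off, at distances of 1.51 to 2.80. Heph, a ferroxidase, had log2 ratios of 4.21, 4.28 and 5.47. The interferon-induced GTPases Tgtp2, Iigp1 and Gbp5 were smallest in mouse 1717, at 3.98, 4.33 and 2.86, where Gsta4 was at 5.58. This likeness is over 3 pairs of libraries only.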

How the data were processed

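The authors deposited estimated counts per RefSeq transcript, not scaled to a common total, from directional libraries of rRNA-depleted total RNA, per the labels' protocols. Kallisto made the estimates on GRCm38 (mm10), per the submitters' processing notes, which give neither its version nor its settings. Estimated counts were summed per symbol and rounded. The function filterByExpr (minimum total 15, minimum count 10) of edgeR kept 19869 genes, TMM scaled them, and the quasi-likelihood test compared DSS with Ctrl with the mouse as a block. P-values were adjusted by Benjamini-Hochberg over these genes, and calls were made under 0.05. The SE is the log2 fold change divided by the square root of F, and CPM uses TMM library sizes and unrounded counts. The same mouse gave both libraries of a pair: deviations from the group means correlated with r = 0.403, 0.248 and 0.518 within mice 1716, 1717 and 1718 and from -0.409 to 0.017 between mice, across genes, which are not independent. Whether the cultures of a mouse were otherwise replicated is not given. With the mouse as a block, p-values measure how far the difference of DSS from Ctrl spread between these pairs of libraries. Alternatives were no block, other scalings, no filter, DESeq2, limma-voom and leaving out each mouse. Lengths, known for 32 of 33 family genes, came from GENCODE M21 and not from the authors' index, and since few other transcripts could be matched, levels per length are CPM per kb, without the rescaling over all transcripts that had been planned. Protein identity was not analysed here. On simulated counts the fit recovered nearly all of the largest changes and its unadjusted p-values were near their nominal rate, but among adjusted calls the share of false ones was above the threshold when each gene kept its own estimated dispersion, and under it when dispersions followed the trend, so calls close to the threshold are less certain than the adjusted p states. The genes and lists were chosen with earlier results of these data known. Named besides the 10 are other family genes of at least 1 CPM on average, up to 4 called genes of smallest p per list, and the 5 genes nearest in pattern to Gsta4 and to Gstm1. Gsta1, Gm3776 and Gstm7, under that level, are named for the copies or calls they concern. Cth and Chac1 are named as the falling genes of their list, and Cyp1b1 and Tiparp as regulators that did not pass. Python 3.11.15 was used with matplotlib 3.10.9, numpy 2.4.6 and pandas 2.3.3, and R 4.3.3 with DESeq2 1.42.0, limma 3.58.1 and edgeR 4.0.16.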

Additional observations from a re-analysis of the deposited data

How the results depend on the processing

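The log2 fold changes of the 9 tested genes kept their sign under all 10 alternatives tried, from 5.21 to 5.77 for Gsta4, 3.91 to 4.09 for Gsta3, 1.96 to 2.40 for Gstm1 and 0.03 to 0.13 for Gstm5. The number of these genes called higher was 7 or 8. Leaving out each mouse gave 4.57 to 4.87 for the Gsta sum and 0.99 to 1.28 for the Gstm sum, and leaving Gsta4 out of the Gsta sum, an alternative added after seeing the data, gave 4.09. The counts over all genes moved more. With no replicate block 1465 genes were higher and 1174 lower, with DESeq2 1470 and 1569, and without 1 mouse 1357 to 2304 and 1422 to 2375, the fewest without mouse 1718. Of the other family genes 4 were higher without the block, 2 with DESeq2, which gave Gm3776 and Gstm7 no adjusted p, and 4 to 8 without 1 mouse, where 0 to 1 were lower. Ptges and Gstt2 were called under every alternative. With the length of the longest transcript, Gsta3 and Gstm5 changed places in DSS and Gsta3 and Gsta4 in Ctrl. Why a setting moved a count was not tested. Depth limits Gsta2, at 4 estimated counts or fewer per library, and the Ctrl levels of Gsta3 and Gsta4.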
